A study of Syntrichia ruralis with 8 samples.

Results

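The clones described here are 3 cDNAs of the moss Tortula ruralis, also called Syntrichia ruralis, out of 768 on the array. USD-117 and USD-150 were annotated in the scanner files as hydrolases of the alpha/beta fold family, and USD-766 as a soluble epoxide hydrolase. They were chosen by annotation, all 3 were found, and all 3 were measured on every array. The 8 two-colour arrays each set RNA of treated leafy gametophytes against RNA of hydrated gametophytes. In 2 arrays the treated RNA was total RNA of slow-dried plants, kept for 24 h at 66% relative humidity and 20 °C over sodium nitrite solution, and in 2 it was total RNA of plants dried rapidly over silica gel and rewetted for 2 h. The other 4 arrays carried polysomal RNA of the same treatments, 2 arrays each, set against polysomal RNA of hydrated plants. All plants, the hydrated ones included, had been collected, kept dry at room temperature and then hydrated for 48 h before use. The dyes were exchanged between the 2 arrays of a pair, which came from separate RNA preparations of many pooled plants, and total and polysomal RNA came from different preparations.

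Alpha/beta fold hydrolases share a core sheet flanked by helices that carries a nucleophile, an acid and a histidine in the active site. The family holds esterases, lipases, peptidases and epoxide hydrolases, and in flowering plants also hormone receptors that arose from such enzymes, so the family name alone fixes no substrate. Soluble epoxide hydrolases open an epoxide ring with water to give a diol. In plants they act on epoxy fatty acids and are studied for cutin monomers and for removal of reactive lipid products. A polysomal fraction is prepared to recover messenger RNA with several ribosomes attached. Polysomal RNA here is the fraction that the labels name so, and neither ribosome loading nor translation was measured.

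Values are log2 ratios of treated over hydrated signal, with the typical clone of each array at 0, and n = 2 arrays per comparison. The standard error (SE) and the adjusted p come from 1 limma fit over all 8 arrays with Benjamini-Hochberg adjustment over 768 clones. A clone is called changed at an adjusted p under 0.05. Because this scale only ranks a clone against the rest of the array, each value is also given on a control scale, on which the mean of 4 ribosomal protein clones (L17, S14, S16 and S3) is 0. The labels describe these as unaffected by treatment, while the design text names L23 and L15 in place of L17 and S3. The control scale was fitted separately, and the error of the control mean is shared by all clones, so its adjusted p-values may be too small. The mean log2 ratio of the control clones was -1.49 (slow-dried total), -1.19 (rehydrated total), -1.41 (slow-dried polysomal) and -1.05 (rehydrated polysomal). They did not move as one: S3 was 1.08 higher in polysomal than in total RNA after rehydration (adjusted p = 0.0193 in limma), and the slow-dried minus rehydrated difference of L17 in total RNA was -1.07 (adjusted p = 0.0168). In whole plants, fewer cells of a type and less RNA per cell cannot be told apart.

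All 3 hydrolase clones were well above background in both channels of all 8 arrays, and 0 of the 24 spots of each were flagged. One array of rehydrated polysomal RNA (slide 85) is called slow-dried in its title, but its source name and protocol say rehydrated. Over the 768 clones, its correlation with the second rehydrated polysomal array was 0.93, and with the pair of slow-dried polysomal arrays it was 0.73 and 0.74. It was used as replicate 2 of the rehydrated group.

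USD-117, an alpha/beta fold hydrolase, was higher in polysomal RNA of treated plants and lower in their total RNA, relative to the typical clone. In slow-dried polysomal RNA its log2 ratios were 1.63 and 1.596, and in rehydrated polysomal RNA 1.00 and 0.93. In slow-dried total RNA they were -0.84 and -0.99, and in rehydrated total RNA -0.48 and -0.51. Every polysomal array thus lay above 0 and every total array below it, and the 2 arrays of each pair differed by less than any gap between pairs. How many of all clones separate by fraction in this way was not counted.

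The fitted rise of USD-117 in slow-dried polysomal RNA was 1.61 ± 0.13 (SE), or 3.06-fold, at an adjusted p of 0.000599 in limma. In rehydrated polysomal RNA it was 0.97 ± 0.13, or 1.96-fold, at an adjusted p of 0.0059. Of the annotated clones only 1 stood higher in slow-dried polysomal RNA, where USD-117 ranked 20 of all 768, and in rehydrated polysomal RNA it ranked 10 among the 209 annotated clones. On the control scale the polysomal values were 3.02 ± 0.28 and 2.02 ± 0.28, which are 8.12-fold and 4.05-fold. The median clone itself stood at 1.44 in slow-dried and 1.04 in rehydrated polysomal RNA on that scale. There 81.6% and 75.5% of all clones were called higher.

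In total RNA USD-117 was 1.88-fold lower than the typical clone after slow drying (-0.91 ± 0.13, adjusted p = 0.0013 in limma) and 1.41-fold lower after rehydration (-0.50 ± 0.13, adjusted p = 0.0166). Both values turned above 0 on the control scale, at 0.57 ± 0.28 (adjusted p = 0.0607) and 0.69 ± 0.28 (adjusted p = 0.0295), and likewise when dye-swap normalization or the authors' ratios were used. The direction in total RNA therefore depends on the scale. The authors' ratios, here and below, are set to the same control clones, so they are no independent check of the control scale. In polysomal RNA the direction was the same on all of these scales, but with dye-swap normalization the rehydrated value was not called (1.09, adjusted p = 0.60). The call in rehydrated total RNA was lost without either of its own arrays (adjusted p of 0.118 and 0.0835) and without either rehydrated polysomal array (0.0512). The call in rehydrated polysomal RNA was lost without replicate 1 (0.97, adjusted p = 0.155) or replicate 2 (0.97, adjusted p = 0.13), each of which leaves a lone array assumed to vary like the other groups.

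Before any normalization, the signals of USD-117 separated the fractions in slow-dried plants and not in rehydrated plants. With the local background subtracted, USD-117 gave 10361 and 20109.7 units in slow-dried polysomal RNA, against 1975 and 1506 units in hydrated polysomal RNA. The total arrays of slow-dried plants gave 8132 and 3142 units, against 4216 and 2560 units in hydrated total RNA. The treated channel was 5.25-fold and 13.4-fold brighter in the polysomal pair, and 1.93-fold and 1.23-fold brighter in the total pair. In rehydrated plants the treated signals were 3731 and 10715 units in polysomal RNA, against 2877 and 3151 units in hydrated polysomal RNA. In total RNA they were 5427 and 11458 units, against 2421 and 8052 units in hydrated plants. There the treated channel was 1.30-fold and 3.40-fold brighter in the polysomal pair and 2.24-fold and 1.42-fold brighter in the total pair, so the fractions overlapped. The treated channel was the brighter one on all 8 arrays. These units still hold the difference between the dyes and between the amounts of label, so a ratio above 1 is no rise in itself.

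**Figure D1:**
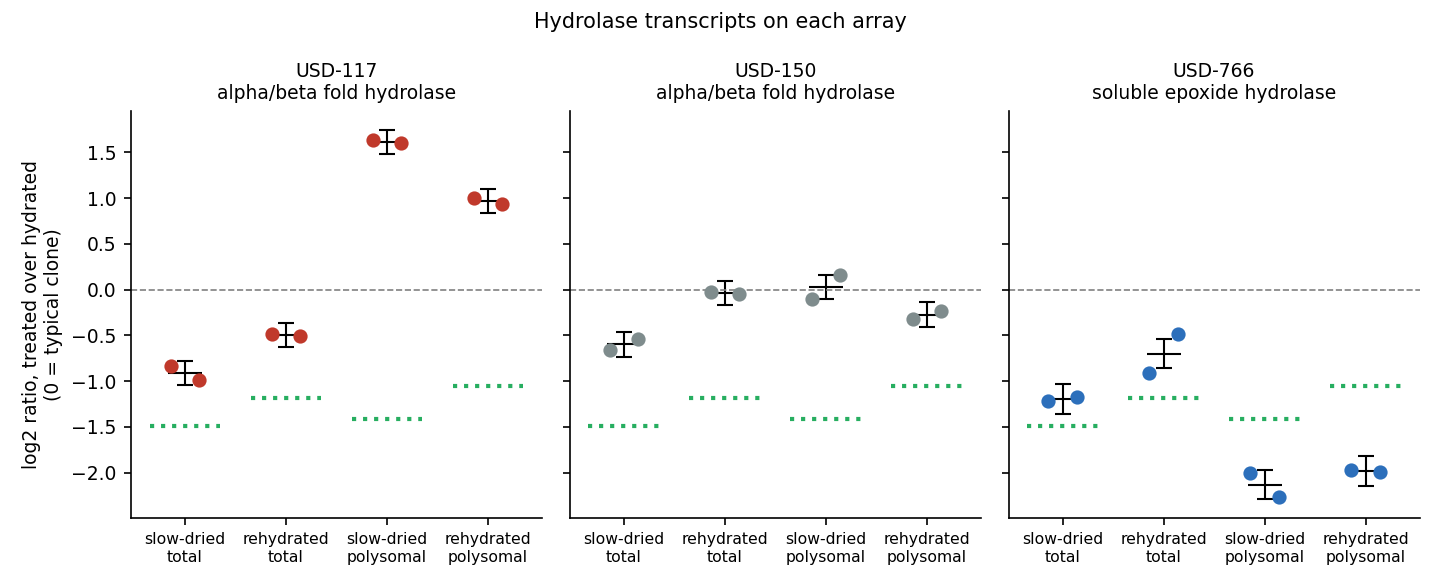
Log2 ratio of treated over hydrated signal (y axis, typical clone at 0, dashed line) for USD-117, USD-150 and USD-766 in the 4 comparisons (x axis). Points are arrays, black bars the fitted value with its SE, and green dotted lines the mean of the 4 control clones. USD-117 lies above 0 on the 4 polysomal arrays and below 0 on the 4 total arrays, while USD-766 lies below 0 on all 8 and below the control clones on the 4 polysomal arrays.

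USD-766, the soluble epoxide hydrolase, was lower than the typical clone in all 4 comparisons, and lower than the control clones in polysomal RNA only. Its log2 ratios were -1.999 and -2.26 in slow-dried polysomal RNA and -1.97 and -1.995 in rehydrated polysomal RNA. The total arrays gave -1.22 and -1.17 after slow drying and, after rehydration, -0.91 and -0.49. All 4 polysomal arrays lay below all 4 total arrays, a separation whose share among all clones was not counted.

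The fall of USD-766 was 4.38-fold in slow-dried polysomal RNA (-2.13 ± 0.16, adjusted p = 0.000581 in limma) and 3.95-fold in rehydrated polysomal RNA (-1.98 ± 0.16, adjusted p = 0.002). Counted from the lowest of 768 clones it ranked 18 in slow-dried and 6 in rehydrated polysomal RNA. On the control scale USD-766 was at -0.72 ± 0.28 (adjusted p = 0.0194) and -0.93 ± 0.28 (adjusted p = 0.0048), both still called. On that scale 2.60% of all clones were called lower in slow-dried polysomal RNA and 1.30% in rehydrated polysomal RNA. With dye-swap normalization neither fall was called (-1.01, adjusted p = 0.131, and -1.99, adjusted p = 0.0587). The call in rehydrated polysomal RNA did not hold without its replicate 1 (-2.03, adjusted p = 0.104) or its replicate 2 (-1.94, adjusted p = 0.0838).

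In total RNA the epoxide hydrolase clone was 2.29-fold lower than the typical clone after slow drying (-1.20 ± 0.16, adjusted p = 0.001 in limma) and 1.62-fold lower after rehydration (-0.70 ± 0.16, adjusted p = 0.0103). On the control scale it was above 0 but not called, at 0.29 ± 0.28 (adjusted p = 0.328) and 0.49 ± 0.28 (adjusted p = 0.115), and both dye-swap normalization and the authors' ratios also put it above 0. Without replicate 1 of rehydrated total RNA, where it stood at -0.91, the value was -0.45 and no longer called (adjusted p = 0.146).

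The unnormalized signals of USD-766 also differed between the fractions. In slow-dried polysomal RNA they were 1335 and 1737 units, against 3849 and 2576 units in hydrated polysomal RNA, and in rehydrated polysomal RNA 689.7 and 1707 units, against 4107 and 4332 units. The treated channel was thus the dimmer one on all 4 polysomal arrays. For slow-dried total RNA the clone gave 7772 and 3718 units, against 5216 and 3374 units in hydrated total RNA, and in rehydrated total RNA 5307 and 7111 units, against 3381 and 4265 units. There the treated channel was the brighter one on all 4 arrays, as it was for USD-117.

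USD-150, the other clone of the alpha/beta fold family, stayed close to the typical clone. Its total arrays gave log2 ratios of -0.66 and -0.54 after slow drying and of -0.024 and -0.050 after rehydration, and its polysomal arrays -0.10 and 0.15 after slow drying and -0.32 and -0.23 after rehydration. The fall in slow-dried total RNA passed the test (-0.60 ± 0.13, 1.52-fold, adjusted p = 0.0081 in limma), but the clone was above 0 on the control scale (0.89 ± 0.28, adjusted p = 0.0065), where 77.7% of all clones were called higher and 3.26% lower, and above 0 by the authors' ratios and dye-swap normalization too.

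In the other comparisons USD-150 did not pass relative to the typical clone. The fitted values were -0.037 in rehydrated total RNA (95% confidence interval -0.36 to 0.29, adjusted p = 0.833 in limma), 0.028 in slow-dried polysomal RNA (-0.30 to 0.35, adjusted p = 0.876) and -0.27 in rehydrated polysomal RNA (-0.60 to 0.051, adjusted p = 0.163). On the control scale it was called higher in all 3, at 1.15, 1.44 and 0.78, where 72.5%, 81.6% and 75.5% of all clones were also called higher. USD-150 was bright, with treated signals of 5139 to 39818 units and hydrated signals of 3214 to 33737 units, and its highest median over the pixels of a spot was 46381 of a largest recorded 65535. Its value leaned on the loess step: with arrays only centred on their median it was at -1.01 in rehydrated total RNA and called (adjusted p = 0.0012).

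By count, 3 of the 3 clones were lower than the typical clone in slow-dried total RNA, where 30.6% of all clones were called lower and 32.4% higher. In rehydrated total RNA 2 of 3 were lower, against 26.8% of all clones lower and 29.4% higher. In slow-dried polysomal RNA 1 of 3 was higher and 1 lower, against 21.0% and 24.5% of all clones. In rehydrated polysomal RNA 1 was higher and 1 lower, against 19.0% and 17.6%. Relative to the control clones, 1 of 3 rose and 0 fell in slow-dried total RNA, where the array had 77.7% and 3.26%, and 2 rose and 0 fell in rehydrated total RNA, where it had 72.5% and 1.56%. In each polysomal comparison 2 were higher and 1 lower on that scale, against 81.6% and 2.60% of all clones after slow drying and 75.5% and 1.30% after rehydration. The polysomal shares rest on few arrays: without replicate 1 or replicate 2 of slow-dried polysomal RNA, limma called 54 higher and 75 lower or 60 higher and 77 lower there, in place of 161 and 188. Without replicate 1 or replicate 2 of rehydrated polysomal RNA it called 0 of the 768 clones there, with 180 or 185 at an unadjusted p under 0.05, in place of 146 higher and 135 lower. With 3 clones, these counts do not set the family apart from the array.

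Whether the response differed between polysomal and total RNA was tested as the difference between the log2 ratios. For USD-117 the polysomal ratio exceeded the total ratio by 2.52 ± 0.18 after slow drying, a 5.76-fold difference (adjusted p = 0.0015 in limma), and by 1.47 ± 0.18 after rehydration, a 2.76-fold difference (adjusted p = 0.0054). These ranked 11 and 27 of 768. For USD-766 the difference ran the other way, at -0.93 ± 0.23 (1.91-fold, adjusted p = 0.0261) after slow drying and -1.28 ± 0.23 (2.43-fold, adjusted p = 0.0103) after rehydration. Among all clones 13.8% were called higher and 15.5% lower in polysomal than in total RNA after slow drying, and 14.5% and 15.5% after rehydration.

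On the control scale the differences were 2.45 and 1.33 for USD-117, both called (adjusted p of 0.000108 and 0.0219), and -1.01 and -1.42 for USD-766, of which the second was called (adjusted p of 0.0721 and 0.0143). On that scale 9.24% of all clones were called higher and 9.77% lower after slow drying, and 5.60% and 13.2% after rehydration. With dye-swap normalization 3 of these differences were not called: those of USD-117 (2.42, adjusted p = 0.0754, and 0.25, adjusted p = 0.792) and that of USD-766 after slow drying (-1.39, adjusted p = 0.636). In the authors' ratios 3 were not called either: that of USD-117 after rehydration (1.29, adjusted p = 0.0883) and those of USD-766 (-1.72 and -1.56, adjusted p of 0.0715 and 0.0883). The slow-drying difference of USD-766 missed the threshold without either slow-dried total array (-0.94 and -0.93, adjusted p of 0.062 and 0.0925), without either slow-dried polysomal array (-1.14 and -0.73, adjusted p of 0.0721 and 0.198) and without either rehydrated polysomal array (adjusted p = 0.0687). After rehydration, both clones' differences missed it without replicate 1 or replicate 2 of rehydrated polysomal RNA, at 1.47 and 1.46 for USD-117 (adjusted p of 0.0635 and 0.087) and at -1.33 and -1.24 for USD-766 (0.095 and 0.117).

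For USD-150 the polysomal ratio exceeded the total ratio by 0.63 ± 0.19 after slow drying (95% confidence interval 0.17 to 1.09), which just missed the threshold in limma (adjusted p = 0.0508) and passed it under 9 of 13 other settings. After rehydration the difference was -0.24 ± 0.19 (-0.70 to 0.22, adjusted p = 0.382). Whether any of the clones' fraction differences was larger after slow drying than after rehydration was not tested.

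**Figure D2:**
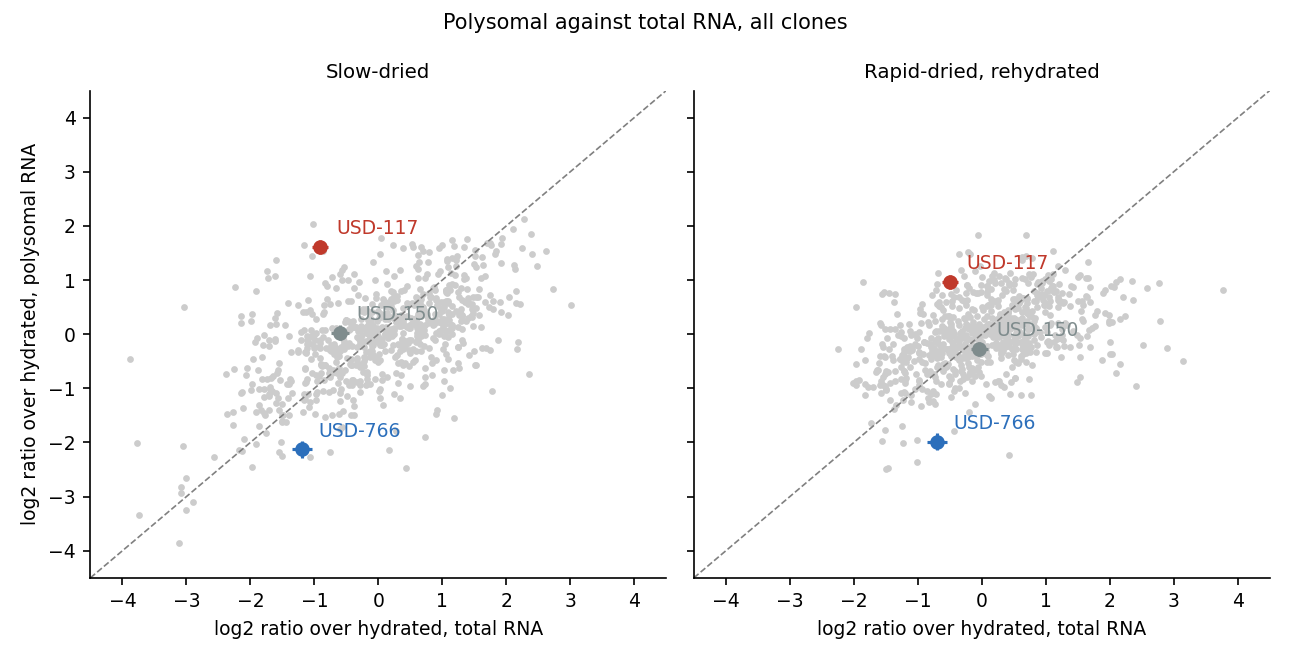
Log2 ratio over hydrated tissue in polysomal RNA (y axis) against total RNA (x axis) for all 768 clones (grey) after slow drying (left) and after rapid drying and rehydration (right), with the hydrolase clones in colour, their SE as bars and the line of equal ratios dashed. USD-117 lies above the line by 2.52 and 1.47 and USD-766 below it, at -0.93 and -1.28, while USD-150 lies nearer to it.

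Slow drying and rehydration were then set against each other within a fraction, and 0 of the 3 clones passed in limma in either one. In total RNA the slow-dried ratio minus the rehydrated ratio was -0.41 for USD-117 (95% confidence interval -0.86 to 0.029, adjusted p = 0.153), -0.56 for USD-150 (-1.02 to -0.10, adjusted p = 0.0883) and -0.50 for USD-766 (-1.05 to 0.052, adjusted p = 0.163). At an unadjusted p under 0.05, 1 of 3 would have passed, USD-150, as would 287 of all 768 clones. By adjusted p, 6.38% of all clones were called higher and 11.3% lower in this difference, and on the control scale 7.29% and 4.30%.

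In polysomal RNA the slow-dried minus rehydrated difference was 0.64 for USD-117 (0.20 to 1.09, adjusted p = 0.116), 0.30 for USD-150 (-0.16 to 0.76, adjusted p = 0.377) and -0.15 for USD-766 (-0.70 to 0.40, adjusted p = 0.723). Here 1 of 3, USD-117, had an unadjusted p under 0.05, as did 182 of all 768 clones. By adjusted p, 0.260% of all clones were called higher and 3.65% lower. Given the width of these intervals, a missed threshold does not show that both treatments act alike.

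The deposited ratios of the authors, which set the median of the 4 control clones at 1 on each array, show the clones on another scale. In the authors' deposited table USD-117 had ratios of 9.15 and 9.31 in slow-dried polysomal RNA and 4.21 and 4.59 in rehydrated polysomal RNA. For slow-dried total RNA the authors' deposited table gives it 1.94 and 2.14, and in rehydrated total RNA 2.07 and 1.56. USD-766 had 0.571 and 0.454 in slow-dried polysomal RNA and 0.543 and 0.497 in rehydrated polysomal RNA in the authors' deposited table, and between 1.31 and 1.99 on the 4 total arrays. USD-150 lay between 1.24 and 1.76 on the total arrays and between 1.75 and 3.53 on the polysomal arrays in the authors' deposited table. Polysomal arrays did not overlap with total arrays for USD-117 or USD-766, but the share of all clones without overlap was not counted. The median ratio of all clones ran from 2.02 to 4.81 per array in that table.

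**Figure D3:**
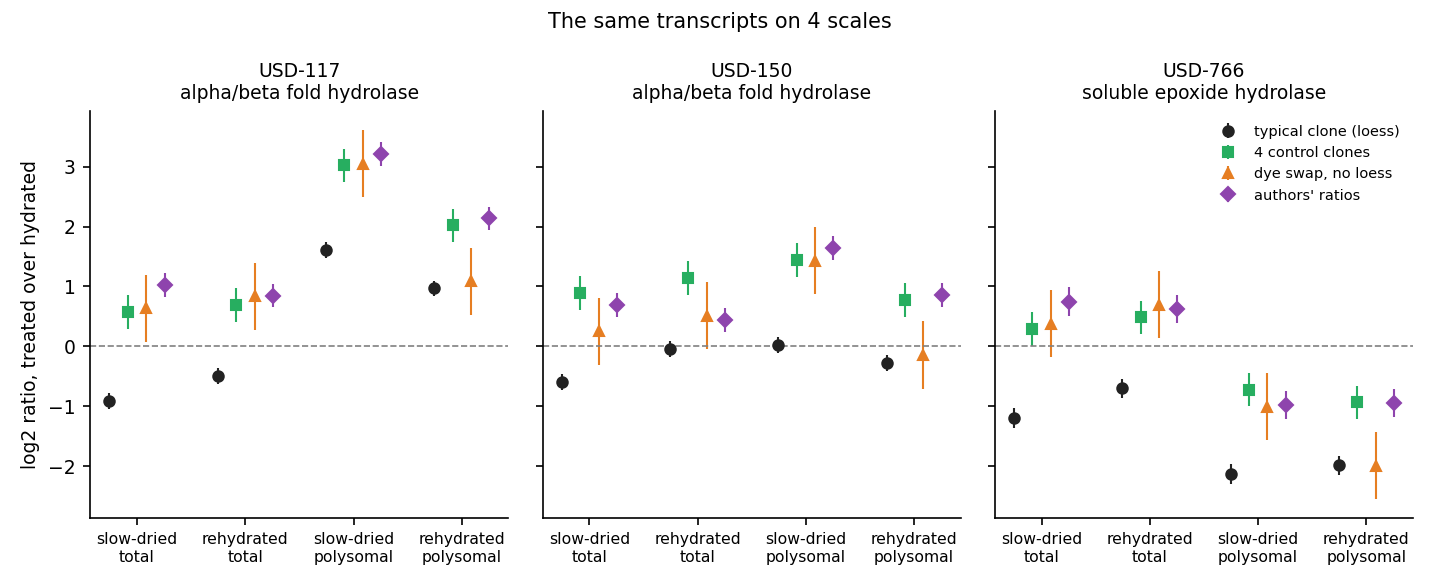
Log2 ratio of treated over hydrated (y axis) for each hydrolase clone in the 4 comparisons (x axis), as fitted by limma with its SE, relative to the typical clone after loess (circles), to the 4 control clones (squares), with dye-swap normalization and no loess (triangles) and from the authors' ratios (diamonds). In total RNA USD-117 and USD-766 are below 0 on the first scale and above 0 on the other 3, while in polysomal RNA USD-117 is above 0 and USD-766 below 0 on all 4.

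A difference between clones on the same array does not depend on where that array's 0 is set. USD-117 exceeded USD-766 by 3.63 and 3.86 in slow-dried polysomal RNA and by 2.97 and 2.93 in rehydrated polysomal RNA, which is 7.62-fold to 14.5-fold. The gap on the total arrays was 0.39 and 0.18 after slow drying, and 0.43 and -0.023 after rehydration. The gap thus lay at or under 0.43 on the total arrays and at or over 2.93 on the polysomal arrays. Before the loess step it was 3.07 to 4.21 on the polysomal arrays and -0.25 to 0.53 on the total arrays.

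The clones that share the annotation differed as well. USD-117 exceeded USD-150 by 1.73 and 1.44 in slow-dried polysomal RNA and by 1.32 and 1.16 in rehydrated polysomal RNA. On the 4 total arrays it lay below USD-150, with differences of -0.46 to -0.17, but above it, by 0.25 to 0.49, before the loess step. Over the 8 arrays the root mean square difference between the log2 ratios was 1.05 for USD-117 and USD-150, 1.46 for USD-150 and USD-766 and 2.39 for USD-117 and USD-766, beside a median of 1.11 over all pairs of clones. These differences between clones are descriptions and were not tested. No sequences of the clones were used here, so how alike the enzymes are was not examined.

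USD-236 is annotated as an alpha beta fold family protein, without the slash, and was added after the files were seen because of that wording. It rose in slow-dried total RNA, with log2 ratios of 0.62 and 1.99 (fitted 1.31 ± 0.32, adjusted p = 0.0114 in limma), but the call was lost without replicate 2 (0.84, adjusted p = 0.19), where the hydrated channel was not well above background. It did not pass in rehydrated total RNA (-0.80 and 0.62, the first with neither channel well above background), slow-dried polysomal RNA (-0.0043 and 0.21) or rehydrated polysomal RNA (-0.26 and -0.55). Its 3 spots disagreed on some arrays, with a standard deviation of up to 1.52, against up to 0.26 for USD-117, 0.68 for USD-150 and 0.31 for USD-766. USD-236 was called higher on the control scale in slow-dried total RNA (2.79), rehydrated total RNA (1.10, adjusted p = 0.0033) and slow-dried polysomal RNA (1.51, adjusted p = 0.000133), and was at 0.64 in rehydrated polysomal RNA (adjusted p = 0.0649). In the authors' deposited table its ratios in slow-dried polysomal RNA were 2.29 and 2.94. Its intervals relative to the typical clone were wide, from -0.86 to 0.68 in rehydrated total RNA, a range that holds the -0.70 of USD-766.

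Other clones of esterase, lipase and carboxypeptidase classes were 5, and they are counted here relative to the typical clone first. For slow-dried total RNA 1 was higher and 2 lower, beside 32.4% and 30.6% of all clones, and in each other comparison 0 were higher and 1 lower, beside 19.0% to 29.4% of all clones higher and 17.6% to 26.8% lower. Against the control clones 3, 5, 4 and 4 of the 5 were higher in slow-dried total, rehydrated total, slow-dried polysomal and rehydrated polysomal RNA and 0 lower, beside 77.7%, 72.5%, 81.6% and 75.5% of all clones higher. The list's median log2 ratio was 0.33, -0.23, -0.21 and 0.080 in slow-dried total, rehydrated total, slow-dried polysomal and rehydrated polysomal RNA, beside 0.047, -0.0050, 0.032 and -0.016 over all clones.

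In this list the rise was in USD-729, a lipase/hydrolase with the GDSL motif (0.86 ± 0.15, adjusted p = 0.0026 in limma). Serine carboxypeptidase (USD-186), which trims residues from the carboxyl end of proteins and does have the alpha/beta fold, fell in slow-dried total RNA (-1.39 ± 0.17, but 0.092 on the control scale), in rehydrated total RNA (-0.55, but 0.63 on the control scale) and in slow-dried polysomal RNA (-1.499 ± 0.17, and -0.091 on the control scale). Phospholipase D delta (USD-48) fell in slow-dried total RNA (-0.97 ± 0.21, but 0.52 on the control scale) and phospholipase D alpha (USD-157) in rehydrated polysomal RNA (-0.79 ± 0.17, but 0.26 on the control scale). Both cleave membrane phospholipids to phosphatidic acid with a fold of another kind. USD-242, with an esterase/lipase/thioesterase domain, did not pass relative to the typical clone in any comparison, with values from -0.21 to 0.42, but passed on the control scale in all 4 (1.91, 1.50, 1.20 and 1.13).

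The list for lipid peroxides and reactive carbonyls, the chemistry next to that of epoxides, held 13 clones. Its words also matched catalase, dehydroascorbate reductase and stromal ascorbate peroxidase, which remove hydrogen peroxide or regenerate ascorbate. After slow drying 5 were higher and 4 lower than the typical clone in total RNA (9 and 2 on the control scale), and in rehydrated total RNA 3 and 6 (7 and 1). In slow-dried polysomal RNA 1 was higher and 6 lower (8 and 1 on the control scale), and in rehydrated polysomal RNA also 1 and 6 (7 and 1). All clones were called higher and lower at 32.4% and 30.6%, 29.4% and 26.8%, 21.0% and 24.5%, and 19.0% and 17.6% in these comparisons, and on the control scale at 77.7% and 3.26%, 72.5% and 1.56%, 81.6% and 2.60%, and 75.5% and 1.30%. The list's medians were -0.013, -0.43, -0.15 and -0.16 in the same order of comparisons.

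At the top of that list stood catalase (USD-265), which breaks down hydrogen peroxide, with rises of 2.14 and 2.21 in slow-dried and rehydrated total RNA and 1.21 and 0.69 in slow-dried and rehydrated polysomal RNA. A glutathione S-transferase (USD-690), of the enzymes that couple glutathione to reactive compounds, was at 0.49 to 0.81 and did not pass relative to the typical clone in any comparison, but passed on the control scale in all 4 (1.67 to 2.09). Dehydroascorbate reductase (USD-202), which regenerates ascorbate, rose in slow-dried total RNA (1.15) and rehydrated total RNA (0.54). Another clone of that annotation, USD-154, also rose in slow-dried total RNA (1.15) but not in rehydrated total RNA (-0.068). At the bottom, microsomal glutathione S-transferase 3 (USD-460) fell in all 4 comparisons, to -3.09 and -1.05 in slow-dried and rehydrated total RNA and to -2.83 and -1.02 in slow-dried and rehydrated polysomal RNA, but was just above 0 on the control scale after rehydration (0.14 and 0.031). Glyoxalase I (USD-190), which acts on methylglyoxal, fell in all 4 comparisons (-2.14 to -0.86), but on the control scale was above 0 in both polysomal comparisons (0.32 and 0.19). USD-190 and USD-102 are both annotated as lactoylglutathione lyases, but USD-102 rose in slow-dried total RNA (1.12, and 2.61 on the control scale). Relative to the typical clone USD-102 did not pass in the other comparisons. Cyclohexanone monooxygenase (USD-224), an enzyme of oxygen insertion, also fell in all 4 (-2.02 to -0.67), but was above 0 on the control scale in polysomal RNA (0.74 and 0.16).

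Of 16 clones matched as other hydrolases, 2 also belong to the esterase list. The words also matched a protease inhibitor (cystatin, USD-191), which is no hydrolase, and a clone annotated as a regulator of Clp protease (USD-261). Of the 16, 3 were higher and 6 lower in slow-dried total RNA (11 and 2 on the control scale), in rehydrated total RNA 5 and 5 (11 and 2), in slow-dried polysomal RNA 1 and 6 (10 and 1) and in rehydrated polysomal RNA 2 and 3 (11 and 0). The shares of all clones beside these counts are again 32.4% higher and 30.6% lower in slow-dried total, 29.4% and 26.8% in rehydrated total, 21.0% and 24.5% in slow-dried polysomal and 19.0% and 17.6% in rehydrated polysomal RNA, with 72.5% to 81.6% higher and 1.30% to 3.26% lower on the control scale. The medians were 0.12, -0.20, -0.36 and -0.24. Highest over the 4 comparisons were trehalase (USD-578), which splits trehalose and rose in rehydrated total RNA (1.51) and rehydrated polysomal RNA (1.06), a protease (USD-369, 0.60 in slow-dried and 0.82 in rehydrated total RNA) and USD-729.

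Lowest among those hydrolases were chitinase (USD-667), which cleaves chitin, and stood at -2.14 in slow-dried total RNA and -2.16 in slow-dried polysomal RNA, both called on either scale, a vacuolar aspartic proteinase (USD-496, -1.97 to -0.87 in the 4 comparisons, though above 0 on the control scale in rehydrated polysomal RNA, at 0.19) and USD-119, of the endonuclease, exonuclease and phosphatase family. USD-119 split between fractions in the direction of USD-117, with -3.04 in slow-dried total RNA and 0.50 in slow-dried polysomal RNA (adjusted p of 0.000179 and 0.0499 in limma). Its polysomal minus total difference was 3.54 ± 0.24 after slow drying (adjusted p = 0.0015 in limma) and 2.46 ± 0.24 after rehydration (adjusted p = 0.0039). Those differences exceed the 2.52 and 1.47 of USD-117, so its fraction difference was not the largest among hydrolases.

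**Figure D4:**
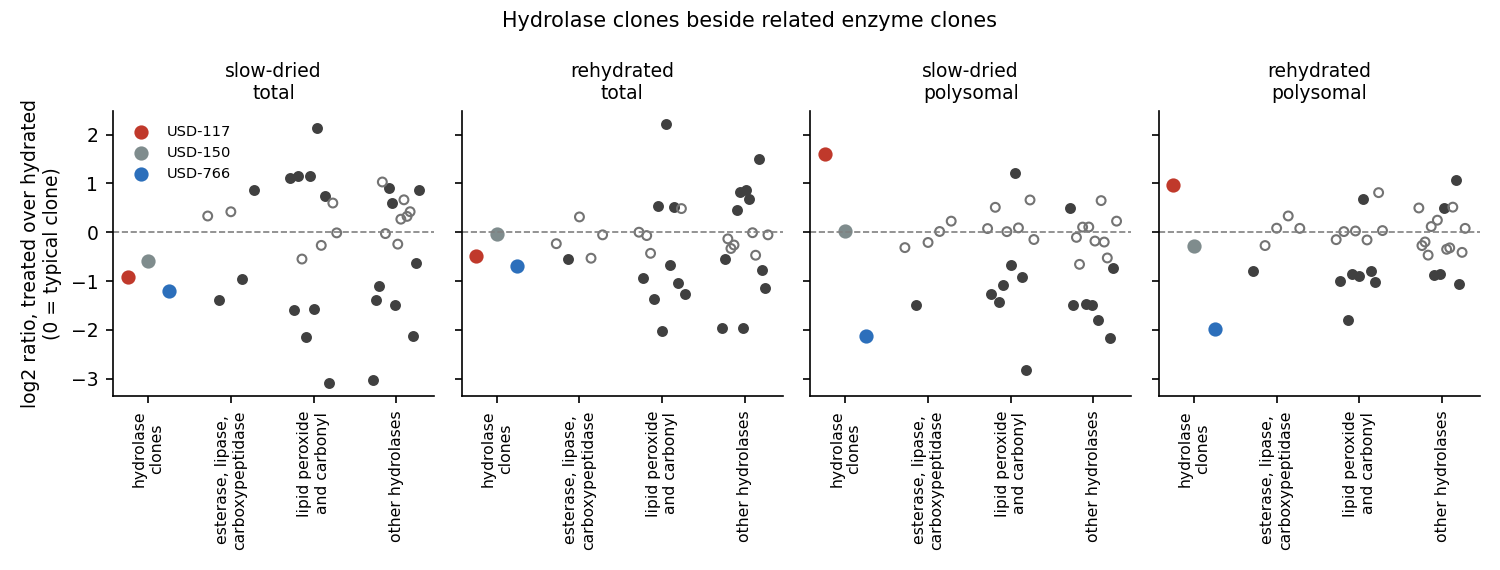
Log2 ratio of treated over hydrated, typical clone at 0 (y axis), in each comparison (panels) for the hydrolase clones (coloured) and for the lists of 5 esterase, lipase and carboxypeptidase clones, 13 lipid peroxide and carbonyl clones and 16 other hydrolase clones. Filled grey points passed the test and open points did not, and 2 clones stand in both the first and the last list. In polysomal RNA USD-117 lies above every clone of these lists in the slow-dried panel, at 1.61, while USD-766 lies below all but microsomal glutathione S-transferase 3 and chitinase there.

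The clones with log2 ratios nearest to each hydrolase over the 8 arrays are given as descriptions of likeness. Nearest to USD-117 were the alpha subunit of mitochondrial 2-oxoisovalerate dehydrogenase (USD-54), which breaks down branched-chain keto acids, at a root mean square difference of 0.40, a hypothetical acyltransferase like tafazzin (USD-67, 0.44) and the vesicle protein VAMP714 (USD-109, 0.44), and with no annotation USD-37 (0.42) and USD-293 (0.49). In slow-dried polysomal and slow-dried total RNA these stood at 1.08 and -1.07 for USD-54, 1.12 and -0.38 for USD-67 and 1.44 and -1.04 for USD-109. All 3 were thus above the typical clone in that polysomal RNA and below it in that total RNA. These clones were picked for nearness on the same arrays, so the shared direction follows from that choice.

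Nearest to USD-150 were enhanced disease susceptibility 5 (USD-124, 0.17), an AWPM-19-like membrane protein (USD-114, 0.19) and a CBS domain protein (USD-426, 0.26), and with no annotation USD-723 (0.22) and USD-575 (0.25). Nearest to USD-766 were stromal ascorbate peroxidase (USD-167), which removes hydrogen peroxide in the chloroplast, at 0.61, ribosomal protein L17, one of the control clones, at 0.62, a translation factor domain protein (USD-379, 0.63), and with no annotation USD-377 (0.48) and USD-254 (0.52). Ascorbate peroxidase also stood lower in polysomal RNA, at -1.42 and -1.79 after slow drying and rehydration, than in total RNA, at -0.55 and -0.43. That difference passed the test after rehydration (-1.36, adjusted p = 0.0185 in limma) and not after slow drying (-0.87, adjusted p = 0.0682). Ascorbate peroxidase was picked for nearness to USD-766 on the same arrays, so its shared direction is no separate evidence. The arrays of a pair share a treatment and a normalization, so 8 arrays are few for a measure of likeness.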

How the data were processed

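Of 8 two-colour cDNA arrays, the deposited scanner files give the intensity of each spot and of its local background, per the file headers, with no normalization and with a spot flag of another kind that runs from 0 to 3. The sources used here do not give the scanner or its software. The authors' deposited table holds 1 ratio of treated over hydrated per clone and array. Its log2 values correlated with the unnormalized scanner log2 ratios at 0.70 to 0.97, and it has no unused sample columns.

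The mean spot signal was corrected with the local background median by normexp (offset 50), log2 ratios were taken per spot, global loess was applied (span 0.3, 4 iterations), and the 3 spots of a clone were averaged. The log2 ratios of the deposited scanner values entered 1 fit in limma 3.58.1 (R 4.3.3) over the 8 arrays, with a coefficient per comparison and a term for the dye, with 3 residual and 6.41 total degrees of freedom. That total holds for the values relative to the typical clone, and the control scale had a fit of its own. There every clone carries the error of the same control mean, which limma pools as if it were independent between clones. Tests were two-sided. The script was tested on simulated data. A clone was well above background where its signal exceeded the background by 2 background standard deviations. The number of arrays limits the precision.

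Replicate 1 has the treated RNA in Cy3 and replicate 2 in Cy5, numbered here. With 2 RNA preparations per group, the p-values rest only on how far preparations differ within groups. That spread was pooled over all groups and moderated by limma with the spread of all clones. It is therefore not the spread of any single pair. The members and lists were chosen with earlier results of these data known. Besides the hydrolase clones, the rule named the 3 annotated and 2 unannotated clones nearest to each over the arrays, all members of lists with up to 6 clones and the 3 highest and 3 lowest of longer lists. USD-154 and USD-102 stand outside that rule and are given beside clones of like annotation. Alternatives covered background, normalization, spot summary, flags, dim clones, the dye term, the prior, the authors' ratios and each array left out.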

Additional observations from a re-analysis of the deposited data

Results flagged for a closer look

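The differences between the polysomal and the total response that passed the test were those of USD-117, at 2.52 ± 0.18 after slow drying and 1.47 ± 0.18 after rehydration, and of USD-766, at -0.93 ± 0.23 after slow drying and -1.28 ± 0.23 after rehydration (log2, SE, limma). They were flagged because the same treatment gave different responses in the 2 RNA fractions, which came from separate preparations. Such calls were common: 13.8% of all clones were called higher and 15.5% lower after slow drying, and 14.5% and 15.5% after rehydration. The slow-drying call of USD-766 was lost on the control scale, with dye-swap normalization and with the authors' ratios. Both calls of USD-117 were also lost with dye-swap normalization. The authors' ratios lost the rehydration calls of USD-117 and USD-766 as well. Whether differences between those preparations played a part was not tested.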

How the results depend on the processing

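The 24 results for the 3 hydrolase clones gave 504 values under other settings, of which 427 kept their direction and their side of the threshold, 33 changed sign, 29 lost the call and 15 gained it. Causes were not tested, except that dye-swap normalization leaves array shifts in the residual by construction and so has larger errors. On the control scale, with dye-swap normalization and with the authors' ratios, total RNA gave 0.57, 0.63 and 1.03 for slow-dried USD-117 and 0.69, 0.83 and 0.85 for rehydrated USD-117, 0.89, 0.25 and 0.69 for slow-dried USD-150 and 1.15, 0.51 and 0.44 for rehydrated USD-150, and 0.29, 0.38 and 0.75 for slow-dried USD-766 and 0.49, 0.70 and 0.62 for rehydrated USD-766. With dye-swap normalization, calls were lost for USD-117 in rehydrated polysomal RNA (1.09) and in both polysomal minus total differences (2.42 and 0.25), and for USD-766 in both polysomal comparisons (-1.01 and -1.99) and in its slow-drying fraction difference (-1.39). That difference was also not called on the control scale (-1.01). The authors' ratios lost the calls of the fraction differences of USD-117 after rehydration (1.29) and of USD-766 (-1.72 and -1.56). USD-150 in slow-dried polysomal RNA was called at 1.44 on the control scale, 1.43 with dye-swap normalization and 1.63 with the authors' ratios, and was -0.015 with the median of spots. In rehydrated polysomal RNA it was 0.78 on the control scale and 0.86 with the authors' ratios. With median centring, USD-150 was called at -1.01 in rehydrated total RNA, and its rehydration fraction difference was 0.87 (0.42 with the authors' ratios). Its slow-drying fraction difference was called at 0.64 with plain subtraction, 0.68 with no background correction, 1.28 with median centring, 0.64 with the mean background, 0.88 with the pixel median, and 0.63 with dim clones left out, flagged spots left out, no dye term or a trended prior. The slow-dried minus rehydrated difference in total RNA turned to 0.082 for USD-117 and 0.022 for USD-150 with median centring, and to 0.18, 0.25 and 0.13 for USD-117, USD-150 and USD-766 with the authors' ratios. In polysomal RNA that of USD-766 turned to 0.21 (control scale) and 0.99 (dye-swap). USD-236 in rehydrated total RNA turned to 1.10 (control scale), 0.89 (dye-swap), 2.29 with the authors' ratios, 0.087 with the mean background and 0.089 with the pixel median, and in rehydrated polysomal RNA to 0.64 on the control scale and 0.58 with the authors' ratios.

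Each of the 8 arrays was left out in turn, and the ranges are lowest to highest for USD-117, USD-150 and USD-766 in that order. In slow-dried total RNA they were -0.97 to -0.86, -0.61 to -0.59 and -1.20 to -1.19. In rehydrated total RNA they were -0.53 to -0.47, -0.13 to 0.054 and -0.95 to -0.45. In slow-dried polysomal RNA they were 1.59 to 1.64, -0.068 to 0.12 and -2.33 to -1.92. In rehydrated polysomal RNA they were 0.97 to 0.97, -0.29 to -0.26 and -2.03 to -1.94. For slow-dried minus rehydrated total RNA they were -0.47 to -0.36, -0.65 to -0.47 and -0.75 to -0.25. For slow-dried minus rehydrated polysomal RNA they were 0.62 to 0.67, 0.21 to 0.40 and -0.35 to 0.058. For polysomal minus total RNA after slow drying they were 2.47 to 2.58, 0.53 to 0.72 and -1.14 to -0.73. For polysomal minus total RNA after rehydration they were 1.44 to 1.49, -0.33 to -0.15 and -1.53 to -1.03. For USD-236 the first 4 ranges were 0.84 to 1.77, -0.58 to 0.40, -0.21 to 0.41 and -1.05 to 0.24.

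The mean background, the pixel median and USD-236 were chosen after seeing the data. Print-block loess was not run, since the files used name no block. No paired analysis was possible because the labels give no replicate numbers, and the numbers used here coincide with the dye. Counts of called clones moved by over 1.5 times on the control scale (597 higher and 25 lower in slow-dried total, 557 and 12 in rehydrated total, 627 and 20 in slow-dried polysomal, 580 and 10 in rehydrated polysomal RNA), with dye-swap normalization (382 and 11, 449 and 0, 322 and 8, 0 and 4) and with the authors' ratios (477 and 19, 536 and 1, 412 and 20, 342 and 6), against 249 and 235, 226 and 206, 161 and 188, and 146 and 135. Leaving out 1 array moved them too, to 54 and 75 or 60 and 77 in slow-dried polysomal RNA and to 0 and 0 in rehydrated polysomal RNA without one of their own arrays (limma, 180 or 185 at an unadjusted p under 0.05 in the second). The polysomal minus total counts were 106 and 119 after slow drying, with as few as 36 and 26 without slow-dried polysomal replicate 2, and 111 and 119 after rehydration, with 0 and 2 without either rehydrated polysomal array. Signal over background limited USD-236 and none of the 3 hydrolase clones.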
